A study of Mus musculus with 6 samples.

Results

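Keratins, claudins and desmosome genes were examined in mouse lung tumour cells sorted by flow cytometry on CD133. Members were the genes whose platform symbol names a keratin, a claudin other than Cldn5, a desmocollin (Dsc), a desmoglein (Dsg), a plakophilin (Pkp) or a zonula occludens protein (Tjp), with Ocln, Dsp and Jup. Of the 18193 genes with a probe set of their own, 86 were members, and each was read at the probe set with the highest mean over all 6 arrays. They comprised 25 type I keratins, 23 type II keratins, 23 claudins, 6 desmosomal cadherins, 6 desmosomal plaque proteins, and 3 tight junction genes of another kind (Tjp1, Tjp3 and Ocln).

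Tumours arose under the skin of syngeneic mice from injected 344SQ cells, a single lung adenocarcinoma line that metastasizes widely. The line came from a KrasLA1/+; p53R172HdelG/+ mouse, so the tumour cells of each fraction share both alleles. CD133 is the surface glycoprotein encoded by Prom1, and 3 arrays were made of CD133 high cells and 3 of CD133 low cells. The labels name no treatment, no age of the mice, no gate against host cells, and no separate tumour or sort behind each array, so p-values here reflect the scatter of these arrays alone, part of which could be technical.

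Keratins are intermediate filament proteins that form obligate pairs of a type I and a type II chain, and the pair in use tells simple epithelia from stratified ones. Keratin filaments are anchored at desmosomes, where the cadherins Dsg and Dsc join neighbouring cells and the plaque proteins Jup, Pkp and Dsp link them to the filaments. Claudins and occludin are 4-pass membrane proteins of the tight junction, and Tjp proteins tie them to actin. Lung adenocarcinoma cells keep the simple epithelial keratins and many of these junction genes, and epithelial to mesenchymal transition is known to lower them.

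The sorted antigen and the epithelial label were checked first. Prom1 had 6.80, 6.63 and 6.40 on the CD133 high arrays and 5.49, 5.92 and 6.06 on the CD133 low arrays (log2 values, here and below), so all 3 high arrays lay above the low ones, with an adjusted p of 0.297 in limma. All 4 epithelial markers (Epcam, Cdh1, Krt8 and Krt18) were above 10 on every array. So were 8 of the 10 leukocyte markers, with Ptprc, which encodes CD45, between 12.74 and 13.20 in the CD133 high fraction and between 12.77 and 13.20 in the CD133 low fraction. Both fractions thus held leukocyte transcripts beside epithelial ones, and in such bulk samples fewer cells of a type and less RNA per cell cannot be told apart.

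CD133 high replicate 1 stood apart from the other CD133 high arrays. Its Spearman correlation across probe sets averaged 0.931 with CD133 high replicates 2 and 3 and 0.973 with the CD133 low arrays. The bacterial hybridisation controls averaged 10.18, 11.05 and 10.81 on CD133 high replicates 1, 2 and 3, against 9.94, 10.28 and 9.96 on the CD133 low arrays. The Gapdh 3' control exceeded the mid-transcript control by −0.13, 0.44 and 0.46 on the CD133 high arrays and by −0.09, −0.09 and −0.07 on the CD133 low arrays. Leukocyte markers (10 genes, none at 0) had medians of 0.16, −0.92 and −1.15 relative to the CD133 low mean on CD133 high replicates 1, 2 and 3, and their summed level lay between 15.26 and 16.05 in the CD133 high fraction and between 15.95 and 15.96 in the CD133 low fraction. Of these markers Cd3e of T cells fell by 2.34 (adjusted p = 0.023) and Cd79a of B cells by 3.06 (adjusted p = 0.0168), and no leukocyte marker rose. Without CD133 high replicate 1, 7 of the 10 leukocyte markers fell, among them Lcp1 by 1.34 (adjusted p = 0.00317) and Cd68 by 1.06 (adjusted p = 0.00332). Of the 8 fibroblast and 8 endothelial markers 0 passed in limma, with 0 and 1 higher and 1 and 0 lower at an unadjusted p under 0.05, and without that array 2 and 1 rose and 1 and 1 fell. The part of these measures in the results below was not tested.

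No member passed the test between the fractions. In limma, with Benjamini-Hochberg adjustment over all 45037 probe sets, 0 of 86 members were higher and 0 lower, where 0.0220% of all genes were called higher and 0.231% lower, and the smallest adjusted p of a member was 0.242. At an unadjusted p under 0.05, 7 members (8.14%) were higher and 4 (4.65%) lower, against 8.30% and 9.94% of all genes. The CD133 high arrays all lay above the CD133 low arrays in 9 members (10.5%) and all below in 8 (9.30%), against 10.8% and 12.8% of all genes. The median difference, CD133 high minus CD133 low, was 0.11 over the members and 0.0013 over all genes.

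Most members were dim. A gene was called dim when its mean over all 6 arrays was below 6.65, the median of that mean over all probe sets, and 52 of 86 members were. The members nearest this limit were Krt33b and Cldn3 above it, at means of 6.68 and 6.72, and Cldn11 and Cldn34c1 below it, at 6.58 and 6.49. The 34 members that were not dim were 9 type I keratins, 8 type II keratins, 9 claudins, Tjp1, Ocln, Dsg2, and all plaque proteins except Pkp1. Among these 34 the median difference was 0.04, against −0.03 over all genes that were not dim.

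**Figure D1:**
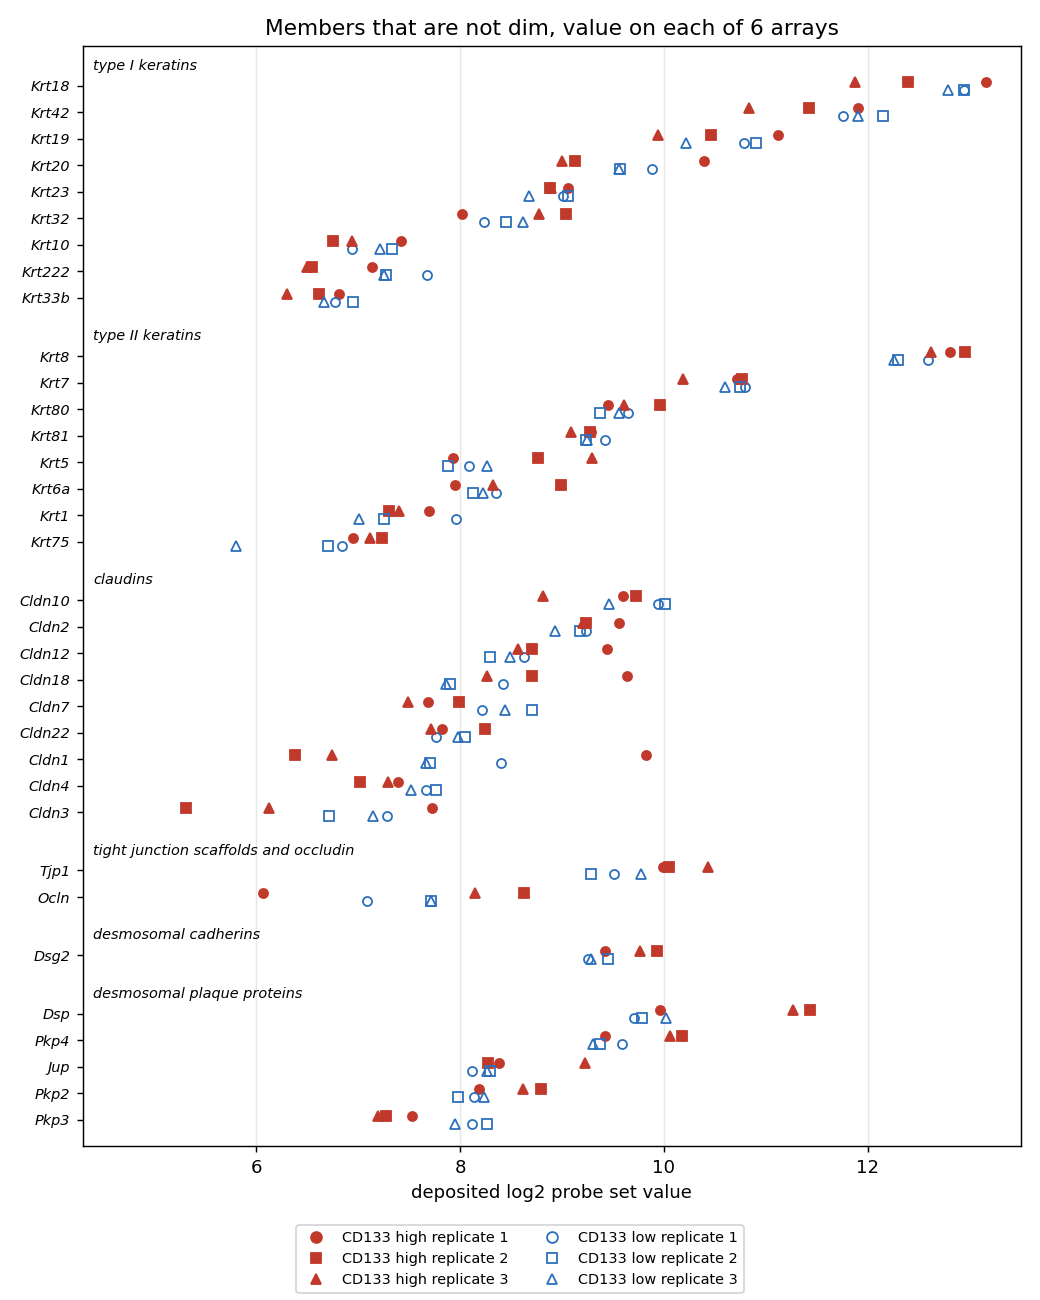
Deposited log2 value of the 34 members that are not dim, 1 row per gene, with filled red marks for the 3 CD133 high arrays and open blue marks for the 3 CD133 low arrays. Pkp3 and Cldn7 lie lower on all CD133 high arrays and Tjp1 and Krt8 higher, while for Dsp only CD133 high replicates 2 and 3 lie far to the right.

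The promoters of 5 members on which the results turn are printed here as background to the values: the Krt8 and Krt18 pair, Dsp, Tjp1 and Cldn7. They run 5′ to 3′ from 250 bases before to 50 after the annotated start, from RefSeq on GRCm38.p6. Capitals mark CACCTG (the E-box bound by Snail and Zeb factors), TATAAA or GGGCGG (the Sp box), each searched on both strands.
Krt8 promoter, chr15:102004293-102004592, minus strand: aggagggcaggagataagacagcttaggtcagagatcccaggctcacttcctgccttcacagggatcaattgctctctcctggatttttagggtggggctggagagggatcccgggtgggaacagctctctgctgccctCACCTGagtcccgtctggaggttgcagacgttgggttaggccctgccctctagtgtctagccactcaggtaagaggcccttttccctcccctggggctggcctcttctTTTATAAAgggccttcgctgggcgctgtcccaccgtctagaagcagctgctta
Krt18 promoter, chr15:102027966-102028265, plus strand: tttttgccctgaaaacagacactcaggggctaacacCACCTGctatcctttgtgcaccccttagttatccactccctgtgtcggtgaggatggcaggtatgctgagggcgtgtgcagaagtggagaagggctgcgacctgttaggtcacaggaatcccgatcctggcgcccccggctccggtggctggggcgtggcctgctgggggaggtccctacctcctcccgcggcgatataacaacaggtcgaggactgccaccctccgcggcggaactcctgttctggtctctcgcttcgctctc
Dsp promoter, chr13:38151044-38151343, plus strand: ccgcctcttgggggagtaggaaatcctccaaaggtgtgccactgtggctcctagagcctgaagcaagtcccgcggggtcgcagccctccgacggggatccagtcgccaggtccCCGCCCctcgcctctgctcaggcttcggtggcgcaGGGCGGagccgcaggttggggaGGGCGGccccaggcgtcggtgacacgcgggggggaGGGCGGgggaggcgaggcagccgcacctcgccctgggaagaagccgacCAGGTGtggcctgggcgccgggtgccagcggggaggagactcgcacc
Tjp1 promoter, chr7:65371195-65371494, minus strand: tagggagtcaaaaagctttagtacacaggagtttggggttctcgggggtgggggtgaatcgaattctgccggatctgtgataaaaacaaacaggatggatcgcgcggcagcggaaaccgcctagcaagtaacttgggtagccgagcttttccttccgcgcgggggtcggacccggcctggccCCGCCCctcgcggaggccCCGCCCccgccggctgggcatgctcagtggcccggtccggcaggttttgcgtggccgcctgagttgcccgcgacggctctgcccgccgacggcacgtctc
Cldn7 promoter, chr11:69965171-69965470, plus strand: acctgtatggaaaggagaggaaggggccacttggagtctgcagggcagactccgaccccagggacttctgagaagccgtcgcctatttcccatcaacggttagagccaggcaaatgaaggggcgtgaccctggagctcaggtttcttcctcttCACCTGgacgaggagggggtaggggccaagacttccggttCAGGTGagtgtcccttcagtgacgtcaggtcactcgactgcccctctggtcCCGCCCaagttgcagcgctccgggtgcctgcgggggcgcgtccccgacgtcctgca

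Of the 86 members 56 had such a window, with 68 windows in all. The E-box was found in 33.8% of the member windows and 20.2% of all 32851 windows, the TATA motif in 29.4% and 13.6%, and the Sp box in 30.9% and 35.7%. TATAAA was found in 63.2% of the 19 type I keratin windows and 42.9% of the 14 type II keratin windows, but in 7.69% of the 26 claudin windows. The E-box was in 21.1% of the type I keratin, 57.1% of the type II keratin and 19.2% of the claudin windows. It was also in 80% of the 5 windows of tight junction scaffolds and occludin and 50% of the 4 plaque protein windows. Some genes gave several of these windows, and those of Ocln overlap each other. In Krt8 a TATAAA and its reverse complement overlap, and a second Cldn7 start in the table held none of the motifs. The grainyhead-like motif AACCNGGTT was in 0 of 68 member windows and in 0.271% of all windows. A match describes the letters of the window only. Neighbouring keratin genes arose by duplication, so their windows are not independent.

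Simple epithelial keratins were expressed on every array, and the partners Krt8 and Krt18 differed in opposite directions. Krt8 had 12.80, 12.95 and 12.62 on the CD133 high arrays, against 12.59, 12.30 and 12.26 on the CD133 low arrays. At this probe set all 3 CD133 high values lay above the CD133 low ones, by 0.41 (SE 0.18, adjusted p = 0.326 in limma). At further probe sets of Krt8, also not dim, the fractions overlapped, with differences of 0.35 and 0.36. Krt18, its type I partner, had 13.16, 12.40 and 11.88 in the CD133 high fraction and 12.95, 12.95 and 12.79 in the CD133 low fraction. Here CD133 high replicate 1 was the highest of the 6 arrays and replicates 2 and 3 the lowest, and the difference was −0.42 (SE 0.32, adjusted p = 0.519). Without CD133 high replicate 1, Krt18 fell by 0.76 (SE 0.18, adjusted p = 0.0355), whereas Krt8 differed by 0.40 (SE 0.16, adjusted p = 0.139). Both windows printed above lie on chromosome 15, on opposite strands. The difference of Krt18 was 0.15, of opposite sign, with the hybridisation controls as covariate.

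Of further keratins of simple and glandular epithelia none passed with all arrays. Krt19, a type I keratin of ducts and airways, had 11.12, 10.46 and 9.94 on CD133 high replicates 1, 2 and 3, against 10.79, 10.90 and 10.22 on the CD133 low arrays, so the fractions overlapped (difference −0.13, SE 0.33), and the difference was 0.28 with the hybridisation covariate and 0.15 without CD133 high replicate 3. Krt20, a keratin of gut and urothelium chosen after its values were seen, had 10.40, 9.13 and 9.00 in the CD133 high fraction and 9.88, 9.57 and 9.56 in the CD133 low fraction. Krt20 was thus highest on CD133 high replicate 1 and lowest on the other CD133 high arrays, and it fell by 0.61 without replicate 1 (adjusted p = 0.0341). Krt7, a type II keratin of glandular and ductal epithelia, had 10.72, 10.76 and 10.19 on CD133 high arrays, against 10.80, 10.75 and 10.60 on CD133 low arrays, a difference of −0.16 (SE 0.19, adjusted p = 0.683) that was 0.0234 without CD133 high replicate 3. Krt23, added after its values were seen, differed by 0.03 (SE 0.16). CD133 high replicate 3 was the lowest array for Krt7, Krt18, Krt19 and Krt20. Krt42, a further type I keratin, had 11.91, 11.42 and 10.84 on CD133 high arrays, against 11.76, 12.15 and 11.91 on CD133 low arrays (difference −0.55, SE 0.28, adjusted p = 0.367), and it fell by 0.81 without CD133 high replicate 1 (adjusted p = 0.0468). The probe set of Krt42 carries the suffix of shared sequence (_x_at), and its other probe set differed by −0.57.

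Keratins of stratified epithelia gave no common direction. Krt5, the type II keratin of basal cells, had 7.93, 8.76 and 9.29 in the CD133 high fraction and 8.08, 7.88 and 8.26 in the CD133 low fraction. CD133 high replicates 2 and 3 lay above every CD133 low array and replicate 1 did not, with a difference of 0.59 (SE 0.34, adjusted p = 0.411), and Krt5 rose by 0.95 without replicate 1 (SE 0.21, adjusted p = 0.0291). Its partner Krt14 was dim, with 5.59, 6.23 and 5.27 on CD133 high arrays, against 5.37, 5.76 and 5.68 on CD133 low arrays (difference 0.09, SE 0.33). Krt1 and Krt10, the pair of suprabasal epidermis, added after their values were seen, differed by 0.05 and −0.12. Skin keratinocyte markers other than keratins were measured for 9 of 10 genes, of which 3 were not dim. Their summed level lay between 9.48 and 10.29 in the CD133 high fraction and between 9.75 and 9.97 in the CD133 low fraction, Trp63 lay between 5.35 and 5.57 in CD133 high and between 5.72 and 5.86 in CD133 low, and Sfn was listed at 0 on CD133 high replicate 1 and 2 of the CD133 low arrays. Of these 9 markers 0 passed in limma, with 0 higher and 1 lower at an unadjusted p under 0.05, and 2 rose without CD133 high replicate 1. Their part in the Krt5 values was not tested.

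Among the remaining keratins, several separated the arrays of the fractions without passing the test. Krt4, a dim keratin that pairs with Krt13 in internal stratified epithelia, had 5.30, 4.81 and 4.75 in the CD133 high fraction and 6.04, 5.74 and 5.95 in the CD133 low fraction, all lower (−0.95, SE 0.28, adjusted p = 0.297). The other probe set of Krt4, which had a mean of 1.60, differed by 0.29. Krt222 had 7.14, 6.55 and 6.49 on CD133 high arrays, against 7.67, 7.27 and 7.25 on CD133 low arrays, again all lower (−0.67, SE 0.25, adjusted p = 0.303), and a dim second probe set differed by 0.94. The hair follicle keratin Krt75 had 6.95, 7.24 and 7.12 on CD133 high arrays, against 6.84, 6.71 and 5.80 on CD133 low arrays, all higher (0.65, SE 0.31, adjusted p = 0.349). Krt12, the keratin of the cornea, differed by 0.84, the inner root sheath keratin Krt71 by −0.50, Krt76 by −0.28 and Krt88 by −1.33, each without overlap and each with an adjusted p between 0.313 and 0.52. These 4 genes were dim, and both Krt12 and Krt88 were below 5 on every array. The other probe set of Krt12 differed by −1.11. Dim members made up 16 of the type I and 15 of the type II keratins, and among these Krt15 and Krt33a, chosen after their values were seen, were listed at 0 on all arrays but 1.

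**Figure D2:**
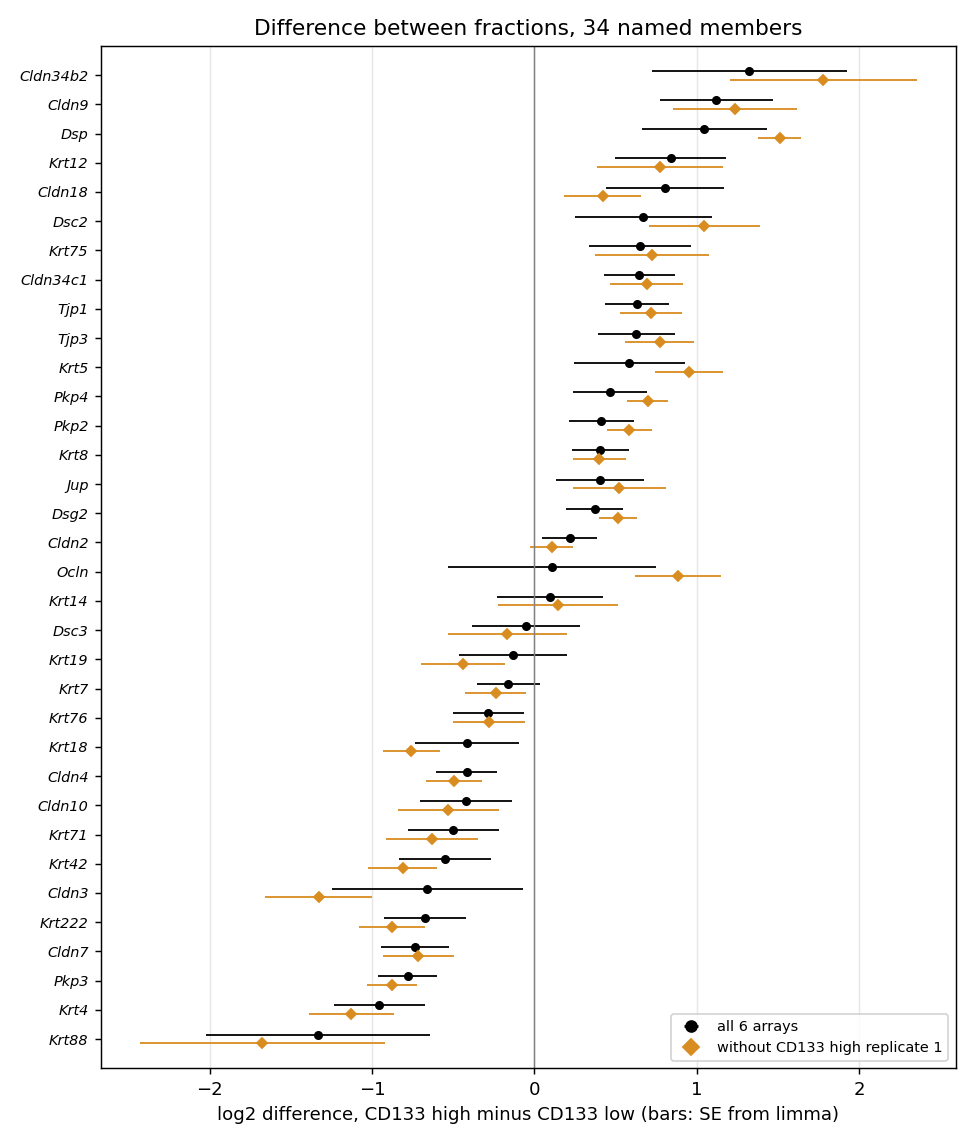
Difference between the fractions (CD133 high minus CD133 low, log2) for the 34 members named by the rule, with SE from limma, for all 6 arrays (black circles) and without CD133 high replicate 1 (orange diamonds). Dsp has a difference of 1.05 with all arrays and 1.51 without that array, and Pkp3 has −0.78 and −0.88.

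Claudins were divided between those higher and those lower in CD133 high cells. Of the 23 members 13 had a positive and 10 a negative difference, with a median of 0.11 that was −0.27 over the 9 that were not dim. Of the 23, 0 passed in limma, and 2 were higher and 1 lower at an unadjusted p under 0.05. Cldn7, a barrier claudin of many simple epithelia, had 7.68, 7.99 and 7.49 on the CD133 high arrays, against 8.21, 8.71 and 8.44 on the CD133 low arrays. All CD133 high values were lower (7.72 ± 0.25 in CD133 high against 8.45 ± 0.246 in CD133 low, SD, n = 3 each), by −0.73 (SE 0.21, adjusted p = 0.295 in limma). Cldn4, which like Cldn7 tightens the paracellular seal, had 7.39, 7.01 and 7.30 on CD133 high arrays, against 7.67, 7.77 and 7.52 on CD133 low arrays. The CD133 high values were again all lower, by −0.42 (SE 0.19, adjusted p = 0.331). Cldn7 and Cldn4 differed by −0.71 and −0.50 without CD133 high replicate 1 (adjusted p = 0.0733 and 0.0955), so these values did not rest on that array.

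Cldn1 and Cldn3 instead split the CD133 high arrays. Cldn1, the claudin of the epidermal barrier, was chosen after its values were seen and had 9.83, 6.38 and 6.74 on CD133 high replicates 1, 2 and 3, against 8.40, 7.71 and 7.66 on the CD133 low arrays. Replicate 1 was the highest of the 6 arrays, and replicates 2 and 3 lay below every CD133 low array. A further probe set of Cldn1 had 8.77, 6.52 and 6.39 on CD133 high arrays, against 7.52, 7.04 and 6.64 on CD133 low arrays, with the same split, although its difference over all arrays was 0.16. Cldn3, a further barrier claudin, had 7.72, 5.31 and 6.12 on CD133 high arrays, against 7.28, 6.71 and 7.14 on CD133 low arrays, with the same split. With all arrays Cldn1 differed by −0.27 (SE 0.87) and Cldn3 by −0.66 (SE 0.59). Without replicate 1, at their brightest probe sets, Cldn1 fell by 1.36 (adjusted p = 0.0253) and Cldn3 by 1.33 (adjusted p = 0.041). No other probe set of either gene passed in that fit. For Cldn1 the further probe set above differed there by −0.61 (adjusted p = 0.195 in limma), and dim ones by 0.01 and 0.84. The other probe sets of Cldn3, all dim, differed there by 0.15, −0.17 and 1.07. The brightest probe set of Cldn3 carries the _x_at suffix, and the brightest one without it differed by 0.0394 with all arrays.

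Cldn18, which has a lung isoform in alveolar epithelium and another in stomach, had 9.64, 8.70 and 8.26 in the CD133 high fraction and 8.42, 7.90 and 7.86 in the CD133 low fraction. CD133 high replicate 1 was the highest array and replicate 3 lay within the CD133 low range. The difference was 0.80 (SE 0.36, adjusted p = 0.333), and 0.42 without replicate 1 (adjusted p = 0.258). A dim second probe set of Cldn18 differed by 0.19, and by −0.09 without replicate 1. Cldn2, a cation pore of leaky epithelia, had 9.56, 9.24 and 9.21 on CD133 high arrays, against 9.24, 9.18 and 8.93 on CD133 low arrays (0.22, SE 0.17, adjusted p = 0.518). Its second probe set, also not dim, was higher on all CD133 high arrays (0.47, adjusted p = 0.3 in limma). That probe set differed by 0.545 without CD133 high replicate 1 (adjusted p = 0.0492). Cldn10, another pore-forming claudin, had 9.60, 9.73 and 8.81 on CD133 high arrays, against 9.94, 10.01 and 9.46 on CD133 low arrays (−0.42, SE 0.28, adjusted p = 0.463). Among dim claudins, 3 were higher on all CD133 high arrays, Cldn34c1 by 0.65, Cldn9 by 1.12 and Cldn34b2 by 1.33 (adjusted p = 0.297, 0.297 and 0.334). Of these Cldn9 was below 5 on every array.

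Among the scaffolds, Tjp1 and Tjp3 were higher on every CD133 high array. Tjp1, which encodes ZO-1, the scaffold beneath claudins and occludin, had 9.99, 10.05 and 10.43 in the CD133 high fraction and 9.51, 9.29 and 9.78 in the CD133 low fraction. The difference of 0.63 (SE 0.20, adjusted p = 0.297) was 0.72 without CD133 high replicate 1 (adjusted p = 0.0497), where Tjp1 rose. Tjp3, which encodes ZO-3, was dim, with 6.23, 6.55 and 6.77 on CD133 high arrays, against 5.86, 5.95 and 5.85 on CD133 low arrays (0.63, SE 0.24, adjusted p = 0.303). Occludin had 6.06, 8.62 and 8.15 on CD133 high arrays, against 7.09, 7.71 and 7.72 on CD133 low arrays. At this probe set Ocln was thus lowest on CD133 high replicate 1 and highest on replicates 2 and 3, the reverse of Cldn1 and Cldn3. The difference was 0.11 (SE 0.64) over all arrays and 0.88 without replicate 1 (adjusted p = 0.0672). The dim second probe set of Ocln had 5.90, 6.93 and 5.86 on CD133 high arrays, against 6.39, 6.02 and 6.35 on CD133 low arrays. That probe set differed by −0.02, and by 0.14 without replicate 1 (adjusted p = 0.814 in limma).

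Among members that were not dim, the plaque genes Dsp and Pkp3 had the highest positive and the lowest negative difference with all arrays, while Cldn1 and Cldn3 lay below Pkp3 without CD133 high replicate 1. Pkp3, a plakophilin that binds desmosomal cadherins and desmoplakin, had 7.53, 7.27 and 7.20 on the CD133 high arrays, against 8.11, 8.27 and 7.95 on the CD133 low arrays. All CD133 high values were lower (7.33 ± 0.175 in CD133 high against 8.11 ± 0.159 in CD133 low, SD, n = 3 each), by −0.78 (SE 0.18), with the smallest adjusted p of all members, 0.242. Pkp3 fell by 0.88 without CD133 high replicate 1 (SE 0.15, adjusted p = 0.0161). Dsp, which encodes desmoplakin, the protein that tethers keratin filaments to the plaque, had 9.96, 11.43 and 11.27 on CD133 high arrays, against 9.71, 9.78 and 10.02 on CD133 low arrays. CD133 high replicates 2 and 3 lay above all other arrays and replicate 1 within the CD133 low range. The difference of 1.05 (SE 0.38, adjusted p = 0.3) did not pass, whereas Dsp rose by 1.51 without replicate 1 (SE 0.13, adjusted p = 0.00336), the smallest adjusted p of any member in that fit. With the hybridisation controls as covariate the difference of Dsp over all arrays was 0.15 (adjusted p = 0.966 in limma).

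At their brightest probe sets, Pkp4, Pkp2 and Dsg2 showed the same split of the CD133 high arrays as Dsp. Pkp4, a plakophilin relative, had 9.42, 10.18 and 10.06 in the CD133 high fraction and 9.59, 9.37 and 9.31 in the CD133 low fraction. Pkp2, a plakophilin that simple epithelia and heart also use, had 8.19, 8.79 and 8.61 on CD133 high arrays, against 8.14, 7.98 and 8.24 on CD133 low arrays. Dsg2, the desmoglein of simple epithelia, had 9.42, 9.93 and 9.77 on CD133 high arrays, against 9.26, 9.46 and 9.29 on CD133 low arrays. At these probe sets of all 3 genes CD133 high replicates 2 and 3 lay above every CD133 low array and replicate 1 did not. The 3 genes differed there by 0.47, 0.41 and 0.37 with all arrays (adjusted p = 0.353, 0.353 and 0.344). Without replicate 1 they rose by 0.70, 0.59 and 0.52 (adjusted p = 0.0177, 0.0368 and 0.033). Further probe sets that were not dim did not all show this split. For Pkp2 a second probe set had 7.81, 8.16 and 7.71 on CD133 high arrays, against 7.46, 7.74 and 7.53 on CD133 low arrays. For Pkp4 a second probe set was lower on all CD133 high arrays (−0.37). For Dsg2 a further probe set was lower on all CD133 high arrays (−0.28) and another higher on all (0.69). Jup, which encodes plakoglobin, had 8.39, 8.27 and 9.23 on CD133 high arrays, against 8.12, 8.29 and 8.26 on CD133 low arrays, with CD133 high replicate 3 the highest array and the fractions overlapping, and it differed by 0.40 (SE 0.27, adjusted p = 0.46). Of the dim cadherins, Dsc2, the usual partner of Dsg2, had 4.53, 5.71 and 5.61 on CD133 high arrays, against 4.92, 4.21 and 4.69 on CD133 low arrays (0.67, SE 0.42), and Dsc3 differed by −0.05.

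**Figure D3:**
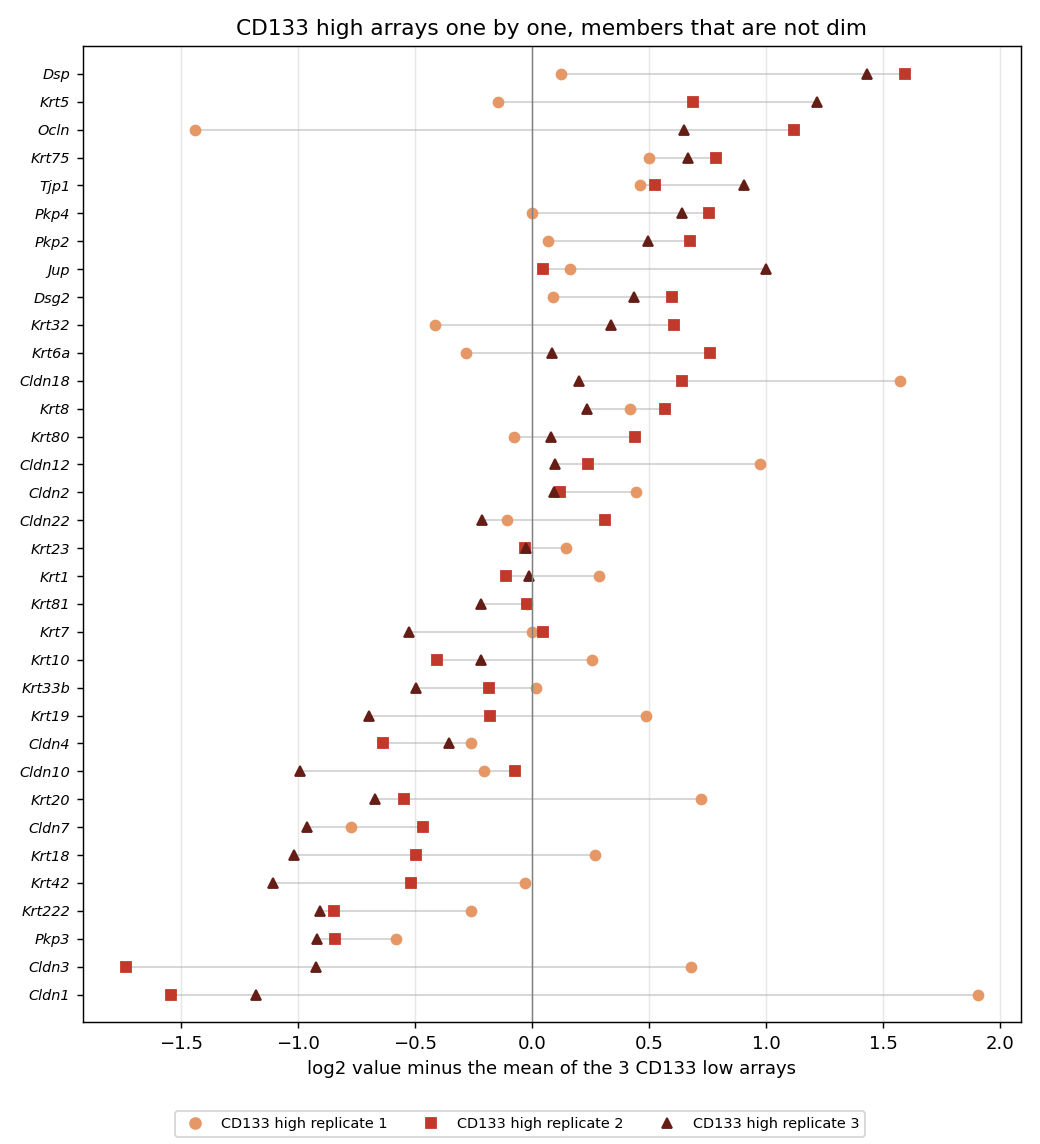
Log2 value of each CD133 high array minus the mean of the 3 CD133 low arrays, for the 34 members that are not dim, ordered by the sum over replicates 2 and 3. Replicates 2 and 3 have the same sign in 32 of the 34 members, and replicate 1 has the opposite sign to both in 15.

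CD133 high replicates 2 and 3 mostly deviated to the same side of the CD133 low arrays, and replicate 1 often did not. Among the 34 members that were not dim, replicates 2 and 3 lay on the same side of the CD133 low mean in 32 (94.1%), and in 15 (44.1%) replicate 1 lay on the other side. Over all genes that were not dim these shares were 83.1% and 33.5%, so these patterns were not limited to the members. Without replicate 1, 9 of 86 members rose and 9 fell (10.5% each), where 11.7% of all genes were called higher and 14.6% lower. Of the 34 members that were not dim 6 rose (17.6%) and 7 fell (20.6%), against 14.8% and 21.0% of all genes that were not dim. The members' shares were thus near those of all genes.

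Those that rose without CD133 high replicate 1 were Dsp, Pkp2, Pkp4, Dsg2, Tjp1, Krt5, Krt6b, Krt13 and Krt72, of which the last 3 were dim. Those that fell were Krt18, Krt20, Krt42, Krt222, Krt4, Krt79, Cldn1, Cldn3 and Pkp3, of which Krt4 and Krt79 were dim. By family, 3 of 6 plaque proteins, 1 of 6 cadherins, 0 of 23 claudins and 1 of the 3 tight junction scaffolds and occludin rose. In these families 1 plaque protein, 0 cadherins, 2 claudins and 0 of the tight junction scaffolds and occludin fell. Of the 25 type I keratins 1 rose and 4 fell, and of the 23 type II keratins 3 rose and 2 fell. The probe sets of Krt13 disagreed in that fit, with 2.18 at the brightest (dim, _x_at, adjusted p = 0.0118), −0.11 at the next (adjusted p = 0.893) and −1.54 at the dimmest (adjusted p = 0.0436). Krt6b, Krt13, Krt72, Krt79, Krt20 and Cldn1 are named here because they were called, after their values were seen.

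Probe sets of the same gene did not always give the same value. The 86 members had 126 probe sets, with 25 members having several, and in 13 of these 25 the sign of the difference varied. For Dsp the second probe set had 10.26, 10.48 and 10.53 in the CD133 high fraction and 9.97, 10.03 and 10.28 in the CD133 low fraction, a difference of 0.33 (adjusted p = 0.347), against 1.05 at the first. Without CD133 high replicate 1 that second probe set differed by 0.41 (adjusted p = 0.0729). The 6 probe sets of Dsg2 differed by between −0.28 and 1.66. All 4 probe sets of Pkp2 and all 3 of Krt8 had positive differences, from 0.32 to 1.19 and from 0.35 to 0.41. The dim second probe set of Pkp3 differed by 0.64 and the second of Pkp4 by −0.37, opposite in sign to the first. Cldn12 was chosen after its values were seen. Its brightest probe set had 9.45, 8.71 and 8.57 on CD133 high arrays, against 8.63, 8.29 and 8.49 on CD133 low arrays. There the fractions overlapped (difference 0.44, adjusted p = 0.41 in limma). The second probe set of Cldn12 had 8.50, 7.97 and 8.31 on CD133 high arrays, against 7.32, 7.25 and 7.49 on CD133 low arrays. These values were all higher, by 0.91 (adjusted p = 0.211). Without CD133 high replicate 1 the differences were 0.17 at the brightest (adjusted p = 0.447) and 0.79 at the second (adjusted p = 0.0296).

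**Figure D4:**
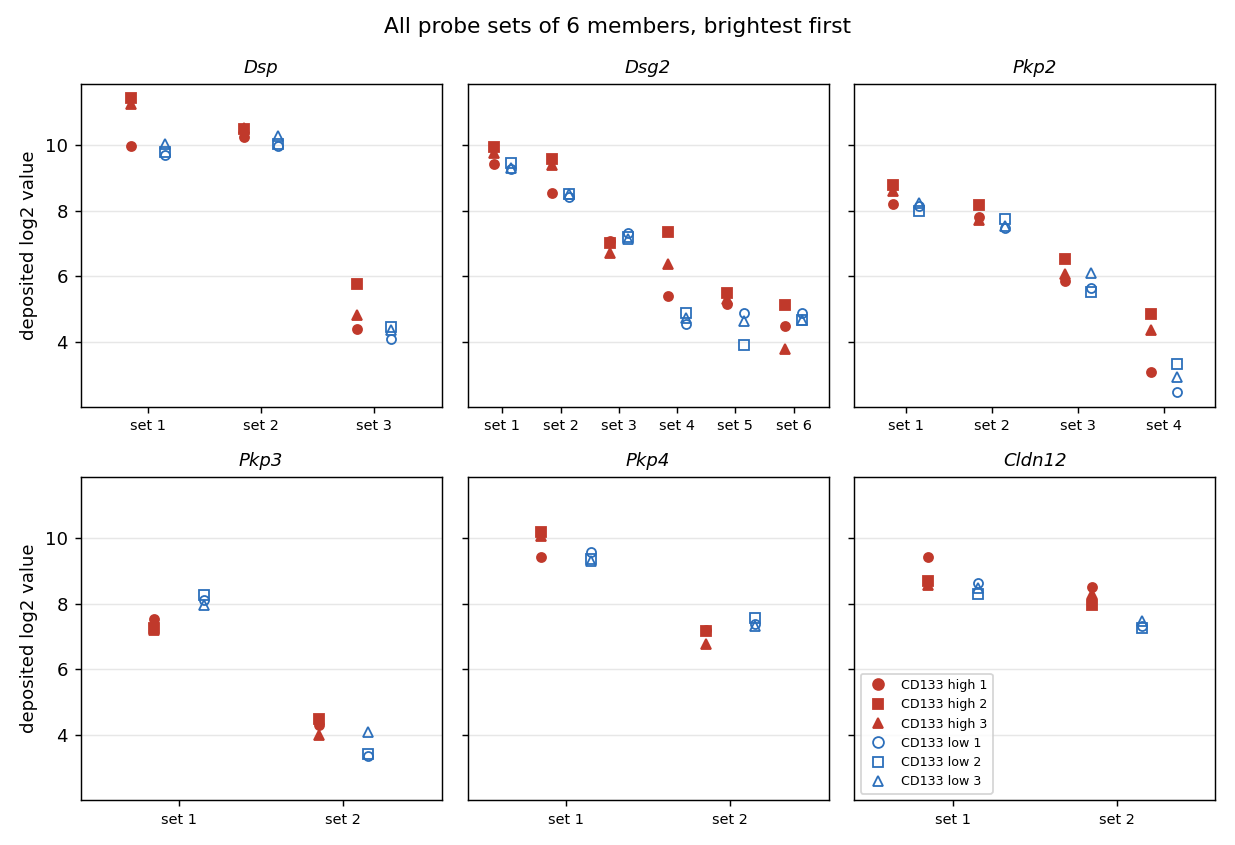
Deposited log2 value of every probe set of 6 members, ordered by mean from left to right within each panel, with filled red marks for CD133 high and open blue marks for CD133 low arrays. The first probe set of Dsp separates CD133 high replicates 2 and 3 from the other arrays more widely than the second, and the probe sets of Pkp3 differ in direction.

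Other genes of cell junctions mostly had positive differences, and 0 passed in limma. Over all genes 9112 of 18193 had a positive difference, and 8.30% were higher and 9.94% lower at an unadjusted p under 0.05. In adherens junctions 10 of 11 genes had a positive difference, with a median of 0.19, and 0 passed or had an unadjusted p under 0.05. E-cadherin (Cdh1), which holds adherens junctions together, had 12.39, 12.52 and 12.30 in the CD133 high fraction and 12.39, 12.36 and 12.28 in the CD133 low fraction, a difference of 0.06 (SE 0.15). Of 18 other tight junction genes measured 14 were positive (median 0.26), with 3 higher and 0 lower at an unadjusted p under 0.05. Mpdz, a scaffold that binds claudins, had 7.42, 7.80 and 8.35 on CD133 high arrays, against 6.84, 7.04 and 7.15 on CD133 low arrays (0.84, SE 0.27, adjusted p = 0.297). Of 10 other desmosome, hemidesmosome and plakin genes 7 were positive (median 0.34), with 2 higher and 0 lower at an unadjusted p under 0.05. Itga6, the integrin chain of hemidesmosomes, had 11.49, 11.94 and 12.12 on CD133 high arrays, against 11.02, 10.94 and 10.99 on CD133 low arrays (0.87, SE 0.19, adjusted p = 0.222), and periplakin (Ppl) differed by 0.60 (adjusted p = 0.297). Without CD133 high replicate 1, 2 adherens junction, 5 other tight junction and 3 other desmosome, hemidesmosome and plakin genes rose and 0 fell, of 11, 18 and 10 measured, where 11.7% of all genes were called higher and 14.6% lower, with Itga6 higher by 1.05 (adjusted p = 0.00429).

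Regulators of epithelial genes and the proteins of the cornified layer were measured as well, and the same shares over all genes stand beside their counts. Of 18 epithelial regulators and surface genes 10 were positive (median 0.07), with 0 past the threshold in limma and 2 higher and 1 lower at an unadjusted p under 0.05. Grhl2, a grainyhead-like factor that drives claudin and E-cadherin genes, was dim, with 5.99, 6.46 and 6.70 in the CD133 high fraction and 5.41, 5.66 and 5.49 in the CD133 low fraction (0.86, SE 0.27, adjusted p = 0.297). Ehf, an epithelial Ets factor, had 7.92, 11.86 and 12.25 on CD133 high arrays, against 7.38, 7.76 and 7.23 on CD133 low arrays. CD133 high replicates 2 and 3 thus again stood apart (3.22, SE 1.07, adjusted p = 0.297), and Ehf rose by 4.60 without replicate 1 (adjusted p = 0.000794). The probe set of Ehf carries the suffix of shared sequence (_x_at), and how specific its signal is to Ehf was not tested. St14, a membrane protease of epithelia, was dim and lower, with 4.53, 6.45 and 6.35 on CD133 high arrays, against 6.88, 7.22 and 7.29 on CD133 low arrays (−1.35, SE 0.53, adjusted p = 0.305), and it differed by −0.73 without replicate 1 (adjusted p = 0.0568). Of 17 cornified envelope genes measured 10 were positive (median 0.11), with 0 past the threshold and 1 higher and 2 lower at an unadjusted p under 0.05. The 9 other intermediate filament genes had a median of −0.15, with 0 past the threshold and 0 higher and 2 lower at an unadjusted p under 0.05. Among these vimentin (Vim), the filament of mesenchymal cells, had 13.90, 13.99 and 14.10 on CD133 high arrays, against 13.78, 13.74 and 13.80 on CD133 low arrays (0.23, SE 0.16, adjusted p = 0.492). Of the 8 mesenchymal transition genes 7 were positive (median 0.20), with 0 past the threshold and 3 higher and 0 lower at an unadjusted p under 0.05. These 3 were Cdh2 (0.86), Snai2 (0.61, at an _x_at probe set) and Zeb2, a repressor of epithelial genes (0.44). Their adjusted p was 0.297, 0.3 and 0.319 in limma. Zeb1, Snai1 and Twist1 of the same list differed by −0.05, 0.17 and 0.03. Without CD133 high replicate 1, 3 epithelial regulators, 4 cornified envelope genes, 0 other intermediate filament genes and 2 mesenchymal transition genes rose, and 0, 1, 4 and 0 of these lists fell, of 18, 17, 9 and 8 measured, beside the same shares of all genes.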

How the data were processed

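RNA of sorted tumour cells was measured on Affymetrix mouse arrays from biotinylated cRNA, per the labels' protocols. The design text names a smaller array than the 45101 deposited probe sets match. The range of the deposited values fits a log2 scale. The authors' summary and normalisation are not stated in the sources used here. The number of arrays limits the precision.

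The 64 control probe sets were left out, and gene symbols came from the platform annotation, in which 34945 probe sets have 1 gene, 932 several and 9160 are unnamed here. A linear model per probe set was fitted to the unaltered log2 values in R 4.3.3 (data.table version 1.17.8) with limma 3.58.1. Variances were moderated along a trend, and two-sided p-values had Benjamini-Hochberg adjustment over 45037 probe sets and 0.05 as threshold. Log2 values needed no floor, which had been planned for linear ones. With 3 arrays a fraction, the smallest two-sided p of an exact permutation test is 0.1, and no such test was run. Differences are CD133 high minus CD133 low. Groups came from the sorted fraction in the labels, and replicate numbers follow accession order and pair no samples. No 2 arrays held the same value in more than 702 probe sets.

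The named members are those past the threshold, up to 8 per direction with the smallest p and no overlap, the 2 of each family with the highest mean, and 17 textbook genes. Members, lists and tests were chosen with earlier results of these data known. The fit was tested on simulated data. Alternatives were other scalings, filters on dim probe sets, a floor of 5, other variance models, array weights, a covariate, other probe set rules, other thresholds and leaving out each array.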

Additional observations from a re-analysis of the deposited data

How the results depend on the processing

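The count of members past the threshold stayed at 0 higher and 0 lower under all alternatives except array weights and the fit without CD133 high replicate 1. With array weights 2 were higher (Dsp and Krt13) and 2 lower (Pkp3 and Krt4), in a fit that called 4808 of 45037 probe sets. When each array was left out in turn the counts ranged from 0 to 9 higher and from 0 to 9 lower, with the 9 and 9 without CD133 high replicate 1. In that fit 9603 of all probe sets were called, against 82 with all arrays. Of 627 comparisons of a named member with an alternative, 589 neither turned in sign nor changed side of the threshold. The threshold was passed in 15, and 23 turned in sign, in 10 members, none of which had passed with all arrays. The 589 include members, such as Cldn9 and Krt12, whose difference was 0 with values below 5 set to 5. With a covariate made from the hybridisation controls, differences were 0.91 for Cldn3, −0.22 for Krt14, 0.15 for Krt18, 0.28 for Krt19 and −1.56 for Ocln. Among members that kept their sign with that covariate, Dsp differed by 0.15 and Dsg2 by 0.02, while Cldn7 differed by −0.96 and Cldn18 by 1.56. With all probe sets of a gene averaged they were 0.01 (0.0088) for Dsc3, −0.14 for Krt12, −0.10 for Krt14 and 0.13 for Krt222. Without _s_at and _x_at probe sets they were 0.0394 for Cldn3, −1.11 for Krt12 and 0.29 for Krt4. With each array left out, the differences ranged from −0.29 to 0.23 for Dsc3, −0.17 to 0.31 for Krt14, −0.44 to 0.15 for Krt19, −0.26 to 0.0234 for Krt7 and −0.40 to 0.88 for Ocln. The cause was not tested. Of 90 values of a family median under an alternative, 13 moved by more than the SD over the CD133 high arrays. Type I keratins had a median of 0.09 with all members and −0.17 without the dimmest 50% of probe sets, and claudins 0.11 and −0.27. No paired analysis was possible because the labels number no replicates.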
